A study of Mus musculus with 3 samples.

Results

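The genes described here encode the translation initiation factors of the mouse and the proteins that carry their names. They were chosen by symbol, as protein-coding genes of mm10 whose symbol begins with Eif1, Eif2, Eif3, Eif4, Eif5 or Eif6. They numbered 56 among 21887 protein-coding genes with a place on a chromosome. The choice of this family was made with earlier results of these data known. Peaks of the zinc finger transcription factor ZFP410 had been mapped in brown preadipocytes, the precursors of thermogenic fat cells. The cells were sorted as Lin−CD29+CD34+Sca1+ from brown fat of male wild-type C57BL/6 mice and grown in medium with serum. The first library was made with a ZFP410 antibody from untreated cells, the second with the same antibody from cells kept for 3 days in brown adipocyte differentiation medium (the induced library), and the third with IgG from untreated cells. The assay was CUT&Tag, in which an antibody brings a transposase to the chromatin around its target and the enzyme tags the DNA there. Each group held 1 library, so all differences below are between libraries and have no replicate check. Peak lists do not measure expression, and the identity of the cells was not checked with marker genes.

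Initiation brings a ribosome with its initiator tRNA to the start codon of an mRNA. The eIF4 proteins bind the cap and open the leader, eIF3 holds the small subunit, eIF1 and eIF1A keep it scanning, and eIF2 carries the initiator tRNA, which eIF5 and eIF5B help to release. Phosphorylation of the alpha subunit of eIF2 by stress kinases blocks its exchange factor eIF2B, which lowers protein synthesis and raises translation of Atf4. Binding of inhibitory proteins to eIF4E, released by mTORC1, is the other main brake.

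Untreated cells gave 3256 ZFP410 peaks, induced cells 7475, and IgG 480, with a median of 4, 7 and 4 fragments at the summit. Fragments at a summit were recovered from the authors' fold and p-value of each peak, and enrichment means those fragments over the genome-wide background of the same library (0.110, 0.246 and 0.0231 fragments). The induced background was 2.24 times the untreated one, so a site of equal enrichment holds more fragments and is more readily called in the induced list. The weakest called summits held 3 untreated, 4 induced and 2 IgG fragments.

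A summit within 1 kb of either end of the gene was found at 6 of the 56 genes in the untreated list (10.7%, 95% Wilson interval 5.00 to 21.5) and at 7 in the induced list (12.5%, 6.19 to 23.6). Over all protein-coding genes the shares were 3.73% and 8.43%. With peaks of −log10 q 5 or more, the untreated share was 1.79% (0.316 to 9.45), against 1.00% of all genes. The induced share was then 10.7% (5.00 to 21.5), against 4.42%. With peaks of fold 5 or more, the shares were 3.57% and 10.7%, against 1.94% and 5.87%. How far each list stood from all genes thus depended on the peak threshold. The genes are not replicates of a condition, and the difference from all genes was not tested in either list. In all 10 genes had such a gene-end peak in either ZFP410 list (17.9%, against 9.76% of all genes). Eif1ad, Eif2ak3 and Eif2s1 had it in both lists (5.36% of the 56, against 2.40% of all genes). Eif4e, Eif4g1, Eif5a and Eif5b had it in the induced list only (7.14%, against 6.03%), and Eif1, Eif2b3 and Eif2b5 in the untreated list only (5.36%, against 1.32%). These shares rest on 3 or 4 genes each. The IgG list had no peak at an end of these genes (0 of 56, which allows a share of up to 5.36%, against 0.0366% of all genes). At equal enrichment the ZFP410 peaks of the 10 genes would have held between 0.375 and 1.87 fragments in the IgG library, below the weakest called summit there, so that the empty IgG count says little at this depth.

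**Figure D1:**
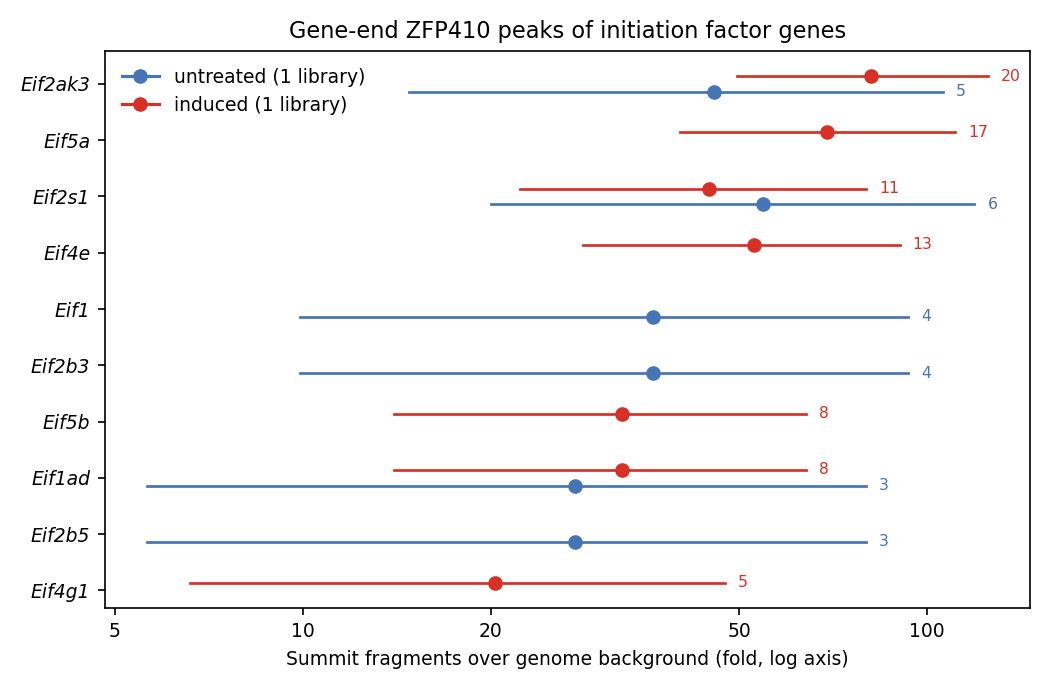
Enrichment at the strongest gene-end peak of each of the 10 genes: summit fragments over the genome background of the library on a log axis (points), with exact 95% Poisson intervals that cover counting error only (lines) and the fragments as numbers. Blue is the untreated and red the induced library, and a missing point means that no peak was listed; Eif2ak3 in the induced library stands highest, and the intervals of the 3 genes with both points overlap.

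The strongest gene-end peak of the 56 genes was that of Eif2ak3, which encodes PERK, the eIF2alpha kinase of the endoplasmic reticulum. The gene lies at 70844484 to 70905241 on chromosome 6 (mm10). Its untreated peak (70844208 to 70844579) held 5 fragments and shared rank 921 of 3256 by the authors' fold with 423 peaks in all. Its induced peak (70844201 to 70844704) held 20 fragments and stood at rank 241 of 7475, a rank held by 17 peaks. The summits were 36 and 70 bp upstream of the annotated start and 34 bp apart. Enrichment was 45.5-fold over background in the untreated and 81.2-fold in the induced library, a ratio of 1.79 whose exact binomial interval ran from 0.650 to 6.09 and included 1. No other protein-coding gene ended within 1 kb of these summits, and the nearest one, Tex37, was 7848 bp from the gene.

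The promoter of Eif2ak3 is shown because both summits fall in it, beside that of Eif2b5, whose untreated summit also lies in the bases printed. Both come from RefSeq (GRCm38.p6, the coordinates of mm10) and run 5′ to 3′ on the plus strand up to the first base of the gene, chr6:70844265-70844483 and chr16:20498567-20498794. Capitals mark CCAAT in either orientation and ACTACAA, the 2 searched motifs found in them. The untreated summit is base 215 and the induced summit base 181 of the first sequence, and the untreated summit is base 97 of the second.
Eif2ak3: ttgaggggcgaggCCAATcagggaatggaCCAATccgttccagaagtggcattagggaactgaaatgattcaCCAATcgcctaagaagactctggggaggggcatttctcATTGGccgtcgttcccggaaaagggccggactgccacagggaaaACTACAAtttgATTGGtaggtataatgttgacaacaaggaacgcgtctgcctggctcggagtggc
Eif2b5: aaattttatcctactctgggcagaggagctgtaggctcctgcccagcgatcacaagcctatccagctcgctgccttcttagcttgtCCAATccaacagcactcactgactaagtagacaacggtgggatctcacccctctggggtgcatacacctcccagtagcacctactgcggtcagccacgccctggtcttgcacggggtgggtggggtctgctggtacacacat

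The promoter window of Eif2ak3, 250 bases before to 50 after the start, held CCAAT or its complement ATTGG 6 times, 5 of them in the bases printed. CCAAT is the letter core of the NF-Y site. As many or more occurred in 16 of 17492 promoters of protein-coding genes (0.0915%), and in no other initiation factor gene. The single ACTACAA, part of the element bound by ZFP143, began 96 bases upstream of the start. The CCAAT letters began 237, 221, 178, 140, 85 and 20 bases upstream of it, so that both summits lie between the last pair. Eif2b5 held CCAAT once.

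The other eIF2alpha kinases had no gene-end peak. The summits nearest to Eif2ak4, encoding the amino acid sensor GCN2, lay 23646 bp from the gene in the untreated and 37917 bp in the induced list. For Eif2ak1, encoding the haem-regulated kinase, the distances were 179707 and 179577 bp, and for Eif2ak2, encoding the double-stranded RNA sensor PKR, 287143 and 113784 bp. Eif2ak3 was thus the 1 gene of the 4 kinases with a gene-end peak, in both lists. Over all genes the shares were 3.73% and 8.43%, so in a group of 4 the empty genes are no result about the kinases.

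Eif2s1, which encodes the eIF2alpha subunit that these kinases phosphorylate, was the other strong gene with peaks in both lists (chromosome 12, 78862072 to 78887010). The untreated peak (78861568 to 78861771) held 6 fragments and the induced one (78861533 to 78862140) 11. Enrichment was 54.6-fold and 44.7-fold, a ratio of 0.818 (0.277 to 2.69). The untreated peak had the most fragments of the 6 genes and was the only one of them to reach a −log10 q of 5. Both summits, 323 and 307 bp upstream of Eif2s1, lay inside its neighbour Atp6v1d, which encodes a subunit of the vacuolar proton pump and points the other way. They were 111 and 127 bp upstream of an annotated start of Atp6v1d, closer than to that of Eif2s1. The genes are parted by the following 63 bases (RefSeq, GRCm38.p6, chr12:78862009-78862071, plus strand), printed to show how close the divergent pair lies, with none of the searched motifs in them and hence no capitals.
Eif2s1: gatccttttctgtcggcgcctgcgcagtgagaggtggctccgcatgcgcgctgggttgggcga

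The remaining genes of eIF2 and of the factors that deliver initiator tRNA in other ways had no gene-end peak. With 3.73% and 8.43% over all genes, so few empty genes are no result about these factors. Eif2s2 and Eif2s3x, which encode the beta and the X-linked gamma subunit, were 132517 and 9954774 bp from an untreated summit and 62112 and 1544834 bp from an induced one. Eif2s3y, the Y-linked gamma gene, was 1687348 and 420588 bp away. Eif2a and Eif2d, whose products carry initiator tRNA outside the usual route, were 356722 and 51489 bp from an untreated and 55890 and 42218 bp from an induced summit.

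eIF2B, the exchange factor that the phosphorylated eIF2 inhibits, had gene-end peaks at 2 of its 5 subunit genes, both in the untreated list alone, where 1.32% of all genes had such a peak. Neither was kept at a −log10 q or a fold of 5 or more. Eif2b3, the gamma subunit gene (chromosome 4, 117019399 to 117086852), had a peak of 4 fragments at 117019401 to 117019699, with the summit 175 bp inside the gene. The same enrichment in the induced library corresponds to 8.96 fragments, above the 4 of the weakest induced peak, and the nearest induced summit was 31019 bp away. Eif2b5, the epsilon subunit gene that holds the catalytic domain (chromosome 16, 20498795 to 20509325), had a peak of 3 fragments at 20498594 to 20498732, with the summit 154 bp upstream of its start. Its enrichment corresponds to 6.72 induced fragments, and the nearest induced summit was 72724 bp away. Both stood low in their list, at ranks 1480 and 2380 of 3256. Eif2b1, Eif2b2 and Eif2b4 lay 348709, 61244 and 7433 bp from an untreated summit and 29058, 29672 and 7480 bp from an induced one.

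Of the scanning factor genes, Eif1 had an untreated peak only (chromosome 11, gene at 100319949 to 100322099, peak at 100320436 to 100320593). It held 4 fragments, with the summit 578 bp inside the gene. The same enrichment in the induced library corresponds to 8.96 fragments, and the nearest induced summit was 69304 bp away. Eif1ad, whose product has an eIF1A-like domain, had peaks in both lists (chromosome 19, gene at 5366813 to 5371518). The untreated peak (5366584 to 5366792) held 3 fragments. An induced peak of 8 fragments (5366066 to 5366975) overlapped it, and a further induced peak of 4 lay inside the gene (5367192 to 5367388). The ratio of the overlapping peaks was 1.19 (0.286 to 6.97). Eif1ad overlaps Banf1 by 64 bases, and the genes point away from each other. Banf1 encodes a chromatin protein of the nuclear envelope. The untreated summit was 201 bp upstream of the start of Eif1ad and 249 bp upstream of the nearest start of Banf1, whereas the stronger induced summit was 477 bp upstream of Eif1ad and 27 bp past a start of Banf1. Eif1a, Eif1ax and Eif1b were 758586, 341858 and 219267 bp from an untreated summit and 131403, 341884 and 219493 bp from an induced one.

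At the cap-binding complex, peaks were listed after induction alone. Eif4e encodes the protein that binds the mRNA cap (chromosome 3, 138526191 to 138559696). Its induced peak (138526263 to 138526473) held 13 fragments, 52.8-fold over background, at rank 754 of 7475. The summit was 204 bp past the first annotated start. The same enrichment corresponds to 5.80 untreated fragments, and the nearest untreated summit lay 1286264 bp from the gene. Eif4g1, which encodes the scaffold that joins eIF4E to eIF4A and eIF3 (chromosome 16, 20672720 to 20692883), had an induced peak of 5 fragments at 20693317 to 20693609. That peak was 542 bp beyond the downstream end of Eif4g1 and 20698 bp from its start, inside the next gene, Fam131a. Its enrichment corresponds to 2.23 untreated fragments, below the weakest untreated summit. Of the other cap-binding protein and scaffold genes, Eif4e1b, Eif4e2, Eif4e3, Eif4g2 and Eif4g3 had no gene-end peak, and their nearest induced summits were 33036, 37783, 118542, 220765 and 60333 bp away. With 3.73% and 8.43% over all genes, these few empty genes are no result either.

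The 4 genes of eIF4E-binding proteins had no gene-end peak in either list. Over all genes the shares were 3.73% and 8.43%, so an empty group of 4 is no result about these proteins. Eif4ebp1, encoding the best known target of mTORC1 among them, was 283372 bp from an untreated and 210757 bp from an induced summit. The distances were 23063 and 150344 bp for Eif4ebp2 and 21635 and 42622 bp for Eif4ebp3. Eif4enif1, encoding the eIF4E transporter, was 22394 bp from an untreated and 4234 bp from an induced summit.

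The helicase genes of eIF4A and their cofactors Eif4b and Eif4h, 6 in all, had none either. With 3.73% and 8.43% over all genes, an empty group of 6 is no result about them. Eif4a3 missed the window narrowly. Eif4a3 encodes the eIF4A-like helicase of the exon junction complex (chromosome 11, 119288363 to 119300043). Overlapping peaks of 3 untreated (119301140 to 119301279) and 7 induced fragments (119301010 to 119301394) lay 1133 and 1103 bp upstream of its start, just outside 1 kb, with a ratio of 1.04 (0.238 to 6.24). The gene just inside the window was Eif5b, at 806 bp. Eif4b had an induced summit of 5 fragments 2729 bp beyond its downstream end, and Eif4a1 and Eif4a2 had induced summits 9598 and 13804 bp away.

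Among the factors that act late, Eif5a and Eif5b were occupied after induction alone. Eif5a, whose product carries the modified residue hypusine and helps elongation as well, lies at 69916712 to 69921958 on chromosome 11. Its induced peak (69921354 to 69921621) held 17 fragments, the second highest number among the initiation factor genes, and the summit was 16 bp upstream of one of 6 annotated starts and 556 bp past the first. The local background there was 1.38 fragments, above the genome background, so the authors' fold was 7.56 and the rank 1972. Its enrichment corresponds to 7.59 fragments in the untreated library, whose nearest peak held 5 and lay 2535 bp beyond the other end of Eif5a, at Gps2 and Neurl4. Eif5b, encoding the GTPase that joins the ribosomal subunits (chromosome 1, 37998010 to 38055579), had an induced peak of 8 fragments at 37997002 to 37997321. Its summit was 806 bp upstream of Eif5b but 4 bp past a start of the divergent neighbour Txndc9, which encodes a thioredoxin-like protein. The enrichment of this peak corresponds to 3.57 untreated fragments. That is just above the 3 of the weakest untreated summit, so its absence from the untreated list says little. Eif5, Eif5a2 and Eif6 were 27541, 214093 and 301846 bp from an induced summit.

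eIF3, the largest of the initiation complexes, had no gene-end peak at any of its 14 genes in either list. The nearest untreated summits ranged from 5894 bp at Eif3g to 1264945 bp at Eif3h, and the nearest induced ones from 6344 bp at Eif3b to 471909 bp at Eif3j2. At 3.73% and 8.43%, a group of 14 would hold about 1 such gene or fewer, so the empty count is no result about eIF3. The single peak inside any of the 56 genes away from their ends was in the IgG list, in Eif3b (chromosome 5, 140438890 to 140439532), with 18 fragments over a local background of 0.732 (0.493% of all genes had such an IgG peak).

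**Figure D2:**
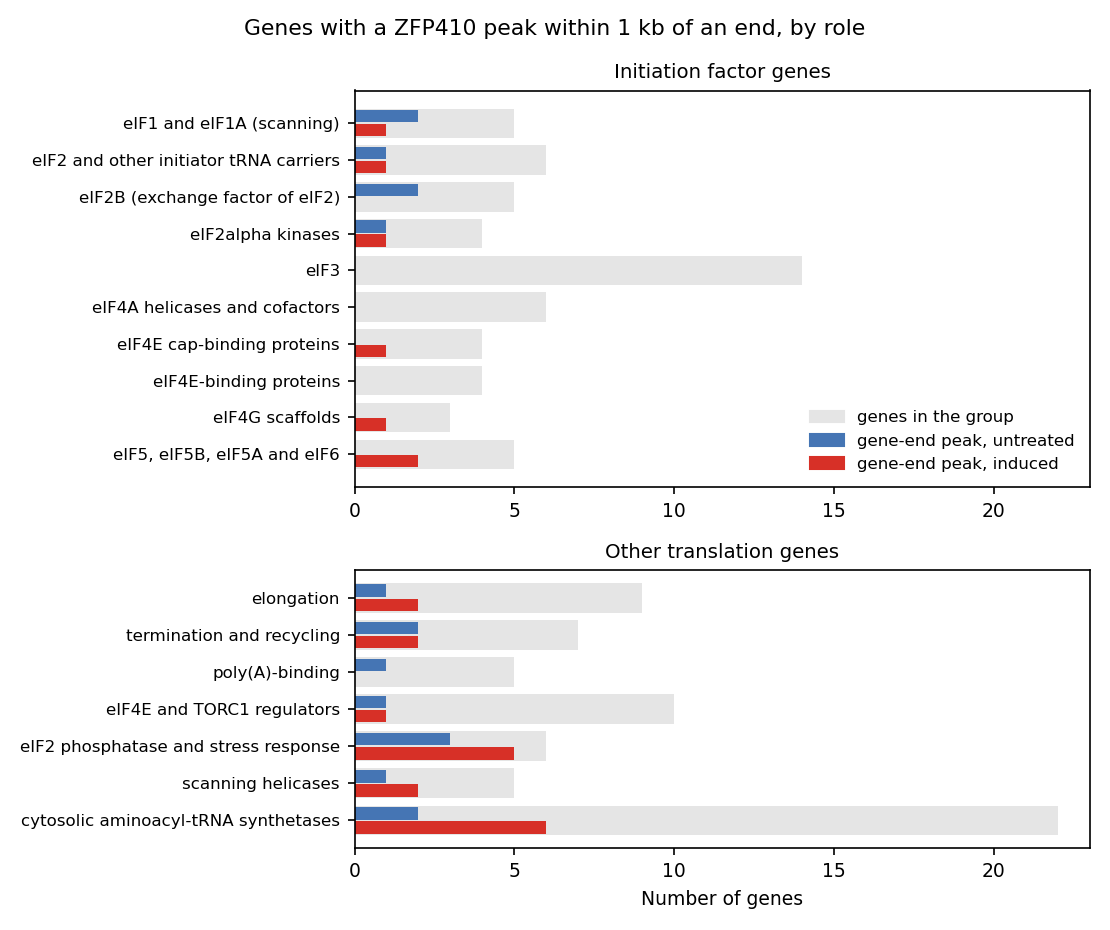
Number of genes with a gene-end ZFP410 peak in the untreated (blue) and induced (red) list, over the number of genes in each role (grey); the x axis counts genes. Among initiation factors eIF3 has 0 of 14 in both. Among other translation genes the eIF2 phosphatase and stress response group has the highest shares, 3 and 5 of 6, which were not tested.

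The peaks of the initiation factor genes were at their ends and not in their bodies. No summit of either ZFP410 list lay inside any of the 56 genes at more than 1 kb from both ends (0 of 56, up to 5.36%). Over all protein-coding genes 4.36% had such a peak in the untreated and 8.21% in the induced list. The 56 gene bodies without their end windows add up to 1.39 Mb, and at the density of all genes they would have held 1.60 untreated and 3.42 induced peaks. Their median length, 18496 bp, was close to the 17169 bp of all genes. The 64 other translation genes described below were alike, with such a peak at 0 in the untreated and 1 in the induced list. The absence is thus not particular to the initiation factor genes, and the difference from all genes was not tested.

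Of the 44 genes with an annotated start in the promoter table, 5 had an untreated summit within 1 kb of a start (11.4%, against 3.94% of all genes with an entry) and 6 an induced one (13.6%, against 8.89%). Eif4g1 was the gene with an entry whose peak was at the downstream end. The genes without an entry were Eif1a, Eif2b3, Eif3e, Eif3h, Eif3i, Eif3j2, Eif4e1b, Eif4e3, Eif4ebp1, Eif4ebp3, Eif4g2 and Eif6.

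**Figure D3:**
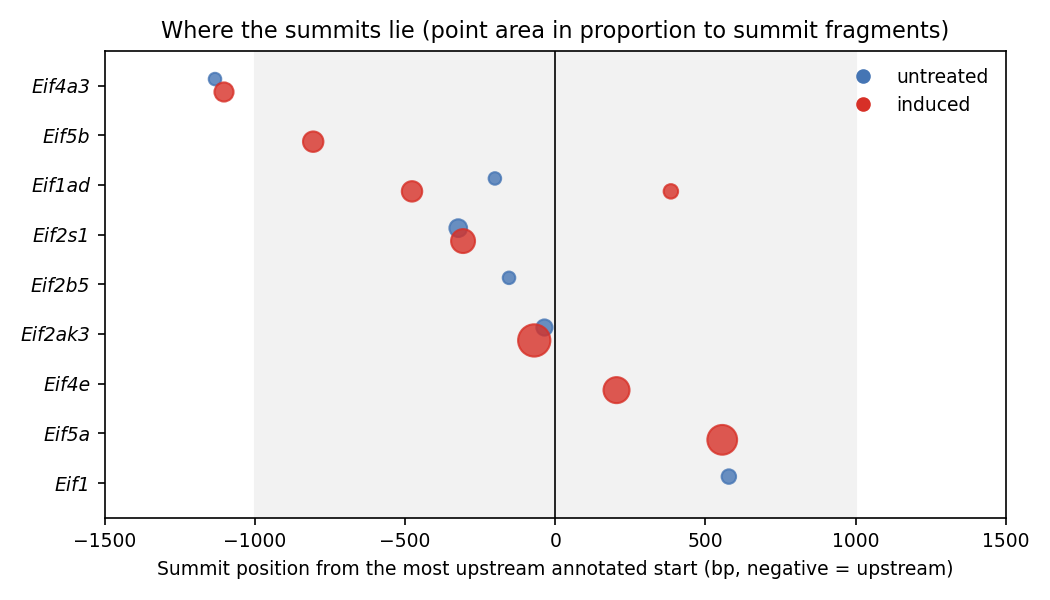
Position of ZFP410 summits from the most upstream annotated start of the gene, in bp, with negative values upstream; point area is in proportion to summit fragments, blue is untreated, red is induced, and grey marks the 1 kb window. Summits of Eif2ak3 lie 36 and 70 bp upstream, those of Eif2s1 323 and 307 bp upstream, and those of Eif4a3 just outside the window.

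Several of these peaks were shared with a neighbouring gene. The summit was also within 1 kb of an end of another protein-coding gene for 2 of the 56 in the untreated list (Eif1ad and Eif2s1, 3.57% against 1.11% of all genes). In the induced list it was so for 4 (Eif1ad, Eif2s1, Eif4g1 and Eif5b, 7.14% against 3.18%). Another gene ends within 1 kb of 27 of the 56 (48.2%), against 24.8% of all genes. Whether this accounts for the shares of shared peaks was not tested. For Eif5b, Eif2s1 and both induced peaks of Eif1ad the summit was nearer to an annotated start of the neighbour, and for Eif4g1 it was inside the neighbour. At the weaker induced peak of Eif1ad the distances were close, 322 bp to Banf1 and 385 bp to Eif1ad. Which gene such a peak serves cannot be told apart from position. Peaks that no neighbour shared were those of Eif2ak3 in both lists, Eif4e and Eif5a in the induced list and Eif1, Eif2b3 and Eif2b5 in the untreated list.

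The calls of the untreated list held fewer fragments and fewer of them passed a strict q, values that also depend on depth. With peaks limited to a −log10 q of 5 or more, Eif2s1 alone of the 56 was kept in the untreated list. Kept in the induced list were Eif1ad, Eif2ak3, Eif2s1, Eif4e, Eif5a and Eif5b. The strongest gene-end peak per gene had a median of 4 fragments over the 6 untreated genes (range 3 to 6) and of 11 over the 7 induced ones (5 to 20). Over all genes with a gene-end peak the medians were 5 and 7. These are raw fragments, and the induced background was 2.24 times the untreated one. As enrichment, the strongest peaks ran from 27.3-fold to 54.6-fold in the untreated list and from 20.3-fold to 81.2-fold in the induced list.

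**Figure D4:**
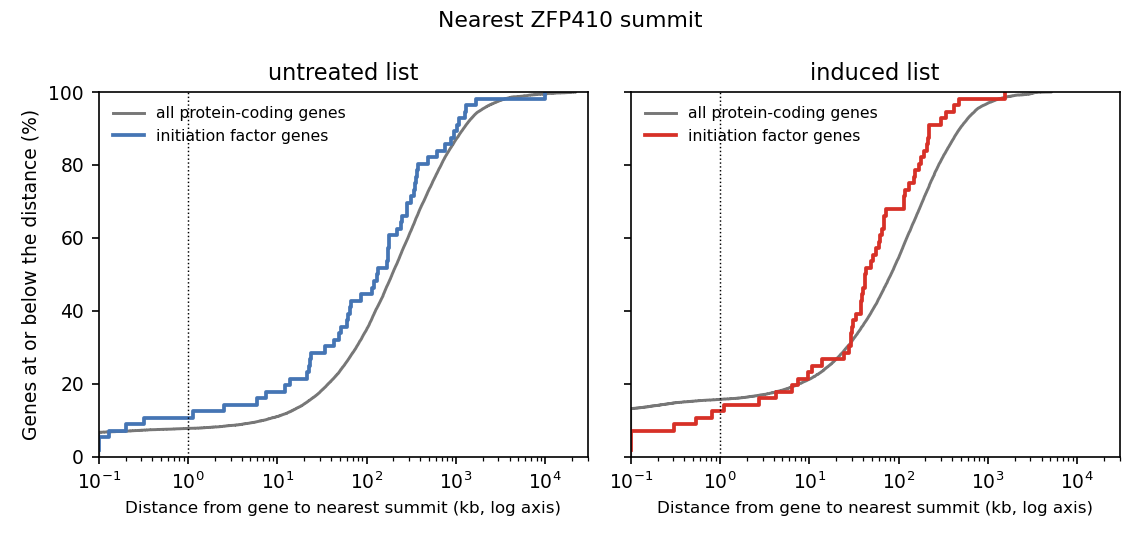
Cumulative share of genes (y axis, percent) by distance from the gene to the nearest summit (x axis, kb, log scale; summits inside the gene are drawn at the left edge) in the untreated (left) and induced (right) list, with initiation factor genes in colour, all protein-coding genes in grey and 1 kb dotted. The medians of the initiation factor genes, 132741 and 42981 bp, are to the left of those of all genes, 192926 and 82220 bp.

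Over all 56 genes, those with a gene-end peak included, the median initiation factor gene was 132741 bp from an untreated summit and 42981 bp from an induced one. For all protein-coding genes the medians were 192926 and 82220 bp. Within 10 kb stood 10 and 13 of the 56 (17.9% and 23.2%), against 11.1% and 21.3% of all genes. These values describe the neighbourhoods and were not tested.

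Promoters of the 44 genes with an entry were rich in CpG, with a median of 23.5 CpG in 300 bases against 13 over 17492 protein-coding genes and a median GC content of 61.0% against 56.3%. The 9 with a gene-end peak had medians of 18 CpG and 55.7% and the 35 without 24 and 61.3%. The letters CATCCCAT and CCCATAAT, which overlap in the known ZFP410 motif, were searched on both strands. Neither was found in the 44 promoters, and they occurred in 0.829% and 0.457% of all promoters. CCGGAAG, the ETS core, was in 14 of the 44 (31.8%, against 11.9%) and GGGCGG, the GC box, in 32 (72.7%, against 46.3%). CCAAT was in 14 (31.8%, against 39.2%), ACTACAA in 5 (11.4%, against 3.82%) and TGACGTCA, the CRE, in 0 (against 2.33%). Of the 9 genes with a peak, Eif2ak3 alone held ACTACAA, Eif1ad alone CCGGAAG, and 4 held GGGCGG. Motif letters are a description of the windows and not of binding.

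The other genes of translation, a list of 64 for elongation, termination, regulation and tRNA charging, were counted in the same way. The list was chosen with earlier results of these data known, so its shares are a description only. Gene-end peaks were found at 11 in the untreated list (17.2%, 9.88 to 28.2, against 3.73% of all genes) and at 18 in the induced list (28.1%, 18.6 to 40.1, against 8.43%), and 10 genes had them in both. The intervals overlapped those of the 56 (10.7% and 12.5%), and the difference was not tested. With peaks of −log10 q 5 or more, 3 were kept in the untreated list (4.69%, against 1.79% of the initiation factor genes and 1.00% of all genes). In the induced list 8 were kept (12.5%, against 10.7% of the initiation factor genes and 4.42% of all genes). The group of eIF2 phosphatase and stress response genes, which acts with Eif2ak3, Eif2s1 and eIF2B, had the highest shares of the roles in this list. It had 3 of 6 in the untreated and 5 of 6 in the induced list. A group of 6 that stands out as the highest of several is no result about the pathway, and it was not tested. With the stricter peaks, Dnajc3 and Ppp1r15a were kept in the untreated and Atf4 and Ppp1r15a in the induced list. Ppp1r15a, which encodes the GADD34 subunit that directs dephosphorylation of eIF2alpha, held 11 untreated fragments (chromosome 7, 45526057 to 45526371, rank 109) and 24 induced ones (45526018 to 45526575, rank 140), a ratio of 0.974 (0.459 to 2.2). Its summits were 3 bp upstream of the start, and Plekha4 shared them.

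Atf4, the transcription factor gene whose mRNA is translated when eIF2alpha is phosphorylated, held 4 and 10 fragments (ratio 1.12, 0.322 to 4.87). Dnajc3, encoding an inhibitor of PERK, held 6 and 6 (0.446, 0.119 to 1.67). Ddit3, the CHOP gene downstream of Atf4, and Ppp1r15b, the constitutive counterpart of Ppp1r15a, had induced peaks only. Their strongest peaks held 9 and 10 fragments at low folds of 4.42 and 3.17. A gene-end peak of Ddit3 was shared with Mbd6. Impact, encoding an inhibitor of GCN2, had no gene-end peak. For genes of this pathway with peaks in both lists, Eif2ak3, Eif2s1, Atf4, Dnajc3 and Ppp1r15a, every interval of the ratio included 1.

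Peaks in the remaining groups were as follows. Elongation had Eef2 (4 and 7 fragments) and, in the induced list alone, Eef1d. Termination had Gspt1, the release factor eRF3 gene, with 4 and 11, and Denr, whose product recycles ribosomes and helps reinitiation, with 3 and 7. Mknk2, encoding a kinase of eIF4E, held 5 and 11 and was the single gene of 10 eIF4E and mTORC1 regulators. Pabpc1, encoding the main poly(A)-binding protein, had an untreated peak of 5 fragments only. The helicase gene Ddx3x held 4 and 6, and Dhx29 an induced peak of 5. Of 22 genes of cytosolic tRNA synthetases and their scaffold, Farsb held 7 and 13 and Hars 3 and 6, whereas Aars, Cars, Mars1 and Tars had induced peaks only, of 5 to 8 fragments.

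Across the 3 initiation factor genes with overlapping gene-end peaks the enrichment ratios (induced over untreated) came to 0.818, 1.19 and 1.79. The median over all 1553 overlapping peaks of both lists was 0.837 (quartiles 0.625 and 1.19), so Eif2ak3 stood above the upper quartile and Eif2s1 near the median. None of the 3 intervals excluded 1, and a change of enrichment at these genes was not detectable at this depth.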

How the data were processed

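The deposited files were MACS2 peak lists, 1 for each of the 3 libraries. The tools named are MACS2 2.1.1, Bowtie2 2.2.6 and Picard, and the build is mm10, per the submitters' processing notes. Duplicate handling and the caller's control were not given in the sources used here. Each deposited list holds, per peak, a score, the fold over local background at the summit, and the −log10 of the p-value and q-value, and the peak names carry a q of 0.1. These scores, folds and −log10 values are the authors' own and served to rank and filter within a list.

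Summit fragments k and local background were recovered from the fold, (k + 1)/(background + 1), and the Poisson tail of the same pair, for 3256, 7474 and 480 peaks (gap under 0.001 in −log10 p), a step tested on simulated data. The genome background is the lowest background level of each list. Gene ends came from RefSeq (GRCm38.p6), and annotated starts from its promoter table for 44 of the 56 genes. Exons and introns were not analysed here.

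Groups came from the sample labels. With 1 library per group no test was made, and counts stand beside the same count over all genes. Intervals are 95%. Those of fragments and ratios cover counting error only. Those of shares depend on the number of genes and do not measure a spread between libraries. The members and lists were chosen with earlier results of these data known. Named were all members with a gene-end peak or a peak inside, the neighbours sharing it, members next to the 1 kb limit, 6 genes regardless of value (Eif4e, Eif4g1, Eif4ebp1, Eif2s1, Eif2ak3 and Eif2ak4) and the occupied genes of the 64. For the remaining members, which that rule gives by counts and ranges, the distance to the nearest summit was added. Alternatives were stricter peaks (−log10 q or fold of at least 5), windows of 500 bp and 2 kb, any base of the peak in place of the summit, induced peaks of at least 7 fragments, and for ratios the scale, the overlap and the local background. Python 3.11.15, pandas 2.3.3 and scipy 1.17.1 were used.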

Additional observations from a re-analysis of the deposited data

How the results depend on the processing

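No paired analysis was possible because each group held 1 library. Stricter peaks lowered the untreated counts most. At a −log10 q of at least 5, and at a fold of at least 5, the 56 genes had 1 and 2 gene-end peaks in the untreated list in place of 6, 1 and 1 shared with a neighbour in place of 2, and 0 and 0 in the untreated list only in place of 3. Genes in both lists numbered 1 in place of 3 at the q setting. Of the 64 other translation genes, 3 and 4 were kept in the untreated list in place of 11, and 8 and 11 in the induced list in place of 18. At 500 bp in place of 1 kb, induced gene-end peaks numbered 4 in place of 7 (7.14%, against 7.16% of all genes), with 2 shared with a neighbour in place of 4 and 1 in the induced list only in place of 4. Eif1 in the untreated and Eif5a in the induced list then counted as inside the gene, 1 each in place of 0. With a window of 2 kb Eif4a3 joined both lists, for 7 untreated and 8 induced genes (12.5% and 14.3%, against 4.56% and 9.81% of all genes). By any base of the peak it joined the induced list (14.3%, against 8.69% of all genes). Induced peaks of at least 7 fragments, the number at which the weakest untreated peak stands at equal enrichment, left 6 induced genes without Eif4g1, against 5.22% of all genes. Scaled by depth, 2.01 in place of 2.24, the ratios rose to 0.912 for Eif2s1, 1.33 for Eif1ad and 1.99 for Eif2ak3, with intervals that included 1. With 50% of both peaks in the overlap, Eif2ak3 alone was left. Summits of 3 to 6 fragments in the untreated list limit every comparison.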
